A study of Homo sapiens with 2 samples.

Results

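Amino acid transporters of the SLC1, SLC3, SLC6, SLC7 and SLC38 families were examined in cells of MDA-MB-231, an established line from a human breast tumour that lacks oestrogen and progesterone receptors and HER2 amplification. The 10 genes (SLC1A4, SLC1A5, SLC3A2, SLC6A9, SLC7A1, SLC7A2, SLC7A5, SLC7A11, SLC38A1 and SLC38A2) were taken by name and matched through their Ensembl identifiers to GENCODE 29 symbols. The rule names genes and uses no expression value, but the list was drawn up with earlier results of these data known. All 10 were found among the 60774 identifiers of the table, and all 10 reached the mean of at least 1 FPKM required of a gene to be compared. FPKM is the number of fragments divided by gene length and by the fragment total of the library. Comparisons of level between different genes therefore depend on the length assigned to each gene.

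Gene expression was measured by RNA-seq in 1 library of MDA-MB-231 cells labelled OE-YWHAB and in 1 library labelled Vector Control. YWHAB encodes the 14-3-3 beta adaptor protein, and the series title ties its over-expression to migration and invasion. The vector, its promoter, the time after transfer, the number of clones and the amino acid content of the medium at harvest are not stated in the labels. The labels of both libraries also carry protocol text on adipogenic induction with insulin, dexamethasone and isobutylmethylxanthine and on harvested retinas. Whether that text applies was not tested.

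The YWHAB library held 13810668 fragments and the vector library 12375999. YWHAB itself stood at 336 FPKM in the YWHAB library and 239 FPKM in the vector library, a ratio of 1.41 (95% counting interval 1.36 to 1.45), which is the direction of its label. Its difference in log2(FPKM + 1) was 0.49, and 7.55% of all genes compared had one of at least 0.5 upwards. A counting interval wholly above equal levels was found for 27.8% of them. Whether the YWHAB value reflects the over-expression was not tested. Of 10 markers listed for the line, VIM was at 861 and 736 FPKM in the YWHAB and vector libraries. ESR1, the oestrogen receptor gene, was at 0.031 FPKM (YWHAB) and 0.242 FPKM (vector). PGR, the progesterone receptor gene, was at 0 FPKM (YWHAB) and 0.02529 FPKM (vector), and CDH1 at 0 FPKM (YWHAB) and 0.1093 FPKM (vector). The keratin gene KRT8 was at 750.8 FPKM (YWHAB) and 650.8 FPKM (vector). ERBB2, the HER2 gene, was at 49.97 FPKM (YWHAB) and 32.85 FPKM (vector), and its amplification was not tested. Of the 10 markers 7 were compared, and all 7 had higher values in the YWHAB library, with a median difference of 0.52. EGFR, with the largest difference of the 7 (0.76), was at 118 FPKM (YWHAB) and 69.5 FPKM (vector). AXL was at 668 FPKM (YWHAB) and 453 FPKM (vector). Whether these levels set this line apart from other lines was not tested. Retina and leukocyte markers were low or absent: 8 retina markers summed to 0.564 FPKM in the YWHAB library and 0.367 FPKM in the vector library, and 5 leukocyte markers to 0.374 FPKM (YWHAB) and 0.420 FPKM (vector). Of 7 adipocyte markers ADIPOQ and LEP were listed at 0 in both libraries, and the list summed to 21.3 FPKM in the YWHAB library and 29.6 FPKM in the vector library, nearly all of it PPARG and LPL. A list of 6 fibroblast and endothelial markers was not absent, and summed to 50.6 FPKM in the YWHAB library and 54.9 FPKM in the vector library. It was mostly COL1A1 at 19.8 FPKM (YWHAB) and 27.3 FPKM (vector), PECAM1 at 15.9 FPKM (YWHAB) and 15.7 FPKM (vector), and PDGFRB at 12.7 FPKM (YWHAB) and 10.0 FPKM (vector). The part of these markers in the values below was not tested. With 1 library per group no test was possible, and no difference below has a replicate check. What separates these libraries may or may not separate the conditions. In bulk RNA, fewer cells that express a gene and less of its RNA per cell cannot be told apart.

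Amino acids cross the plasma membrane on carriers that differ in substrate and in driving force. Exchangers such as SLC7A5 and SLC1A5 swap one amino acid for another, sodium-coupled carriers such as SLC38A1, SLC38A2 and SLC6A9 concentrate neutral amino acids or glycine inside the cell, and SLC7A1 and SLC7A2 take up arginine and lysine. SLC3A2 is not a carrier on its own but the glycoprotein heavy chain (CD98hc) that brings several SLC7 light chains to the surface. Tumour cells, including those of breast cancer, are known to depend on such carriers for glutamine, leucine and cystine, and several of these genes are known targets of the transcription factor ATF4 when amino acids run short.

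The transporters divided into 6 genes with higher values in the YWHAB library and 4 that were close to equal or lower. SLC7A5, SLC7A1, SLC1A4, SLC1A5, SLC6A9 and SLC38A1 had FPKM ratios (YWHAB over vector) between 1.45 and 1.75, while SLC7A2, SLC38A2, SLC7A11 and SLC3A2 had ratios between 0.735 and 1.01. None of the 10 passed the 2-fold rule, a difference of at least 1 in log2(FPKM + 1), on which low genes appear to differ less than their ratio. That rule was passed by 2.66% of the 13420 genes compared, 0.686% higher and 1.97% lower in the YWHAB library (92 and 265 genes). A smaller difference of at least 0.5, a limit chosen after the values were seen, was reached upwards by 6 of the 10 and downwards by 0. Among all genes compared 7.55% reached it upwards and 8.9% downwards. The median difference of the 10 genes was 0.54, against 0.03 over all genes compared, and no member lay between 0.01 and 0.53, so the median stands at the lower edge of the higher group.

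**Figure D1:**
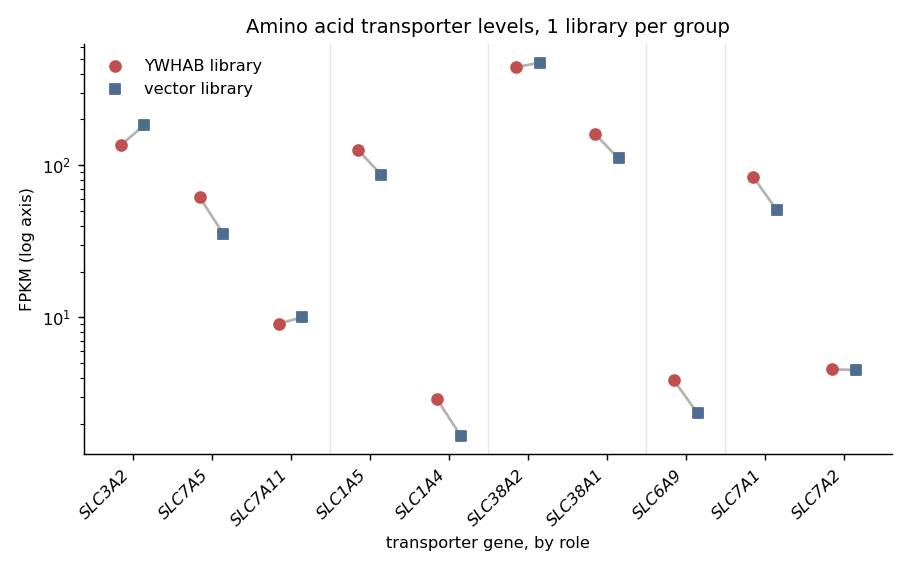
FPKM (log axis) of the 10 transporter genes in the YWHAB library (circles) and in the vector library (squares), 1 library per group, ordered by role. Lines join the 2 values of a gene: they step down from YWHAB to vector for SLC7A5, SLC1A5, SLC1A4, SLC38A1, SLC6A9 and SLC7A1, and up for SLC3A2, which stood at 135 FPKM in the YWHAB library against 184 FPKM in the vector library.

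Promoter sequences are shown for the heavy chain gene SLC3A2, the transporter with the lowest ratio, and for SLC7A5 and SLC7A1, the transporters with the largest positive differences. Each window runs from 250 bases before to 50 bases after an annotated start (RefSeq, GRCh38.p14), 5′ to 3′ on the strand of the gene. Capitals mark 3 motifs searched on both strands: the ATF4-type amino acid response motif TGATGNAA, the NRF2-type antioxidant motif TGACNNNGC, and the MYC-type E-box CACGTG.
SLC3A2, chr11:62881449-62881748, plus strand: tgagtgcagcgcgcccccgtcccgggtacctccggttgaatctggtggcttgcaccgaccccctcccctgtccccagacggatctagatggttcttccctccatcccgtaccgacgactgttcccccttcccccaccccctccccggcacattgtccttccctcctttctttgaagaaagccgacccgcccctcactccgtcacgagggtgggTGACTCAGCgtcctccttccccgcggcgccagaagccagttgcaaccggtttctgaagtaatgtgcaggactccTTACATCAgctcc
SLC7A5, chr16:87869458-87869757, minus strand: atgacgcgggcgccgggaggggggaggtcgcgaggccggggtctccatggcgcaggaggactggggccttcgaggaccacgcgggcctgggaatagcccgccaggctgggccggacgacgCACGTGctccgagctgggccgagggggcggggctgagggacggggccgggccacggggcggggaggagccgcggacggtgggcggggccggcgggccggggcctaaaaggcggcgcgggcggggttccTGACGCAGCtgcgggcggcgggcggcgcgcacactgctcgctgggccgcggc
SLC7A1, chr13:29595639-29595938, minus strand: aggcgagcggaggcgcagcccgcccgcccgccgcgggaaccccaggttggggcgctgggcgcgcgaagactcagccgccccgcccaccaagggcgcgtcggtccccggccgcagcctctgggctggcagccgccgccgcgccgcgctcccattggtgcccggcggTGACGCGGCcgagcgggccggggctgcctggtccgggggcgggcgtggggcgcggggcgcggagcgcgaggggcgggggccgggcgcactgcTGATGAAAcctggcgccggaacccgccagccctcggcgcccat

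The SLC3A2 window held TGACTCAGC and, after the start, TTACATCA, the reverse complement form of the amino acid response motif. The SLC7A5 window held the E-box and TGACGCAGC, and the SLC7A1 window held TGACGCGGC and TGATGAAA. Across 14 RefSeq windows of 8 of the transporters (several genes have more than 1 start), 7 windows from 6 genes held at least 1 of the motifs, against 22.3% of 35116 RefSeq promoter windows of the same length. Singly, TGATGNAA was found in 3.62% of all windows, TGACNNNGC in 13.3% and CACGTG in 7.26%. The SLC3A2 window printed is 1 of 3 for that gene, and the other 2 held no match. Neither did the windows of SLC6A9 and SLC38A2, and that of SLC7A5 held no TGATGNAA. A match is a description of the letters and not a bound site. The other 2 transporters, SLC7A2 and SLC7A11, were not analysed for motifs here.

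SLC3A2 (ENSG00000168003), the CD98 heavy chain gene, is located on chromosome 11 (plus strand, 62856102 to 62888875 in GRCh38, as for all positions below). It was at 135 FPKM in the YWHAB library and 184 FPKM in the vector library, from 2017 (YWHAB) and 2459 (vector) fragments. The ratio was 0.735 (counting interval 0.693 to 0.780), the lowest of the 10, and its interval lay below equal levels. Of all genes compared 11.1% had a difference as far below as the -0.44 of SLC3A2.

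SLC7A5 (ENSG00000103257), which encodes the light chain LAT1, the exchanger of leucine and other large neutral amino acids, lies on chromosome 16 from 87830023 to 87869488 on the minus strand. It was at 61.6 FPKM in the YWHAB library and 35.3 FPKM in the vector library, from 2644 (YWHAB) and 1357 (vector) fragments. The difference of 0.79 was the largest of the 10 in size, with a ratio of 1.75 (counting interval 1.64 to 1.87), and 1.82% of all genes compared were as far above. Of the transcript 50-mers of SLC7A5, 3.92% also occur in genes elsewhere in the genome, mostly in the SMG1P3 pseudogene (0.599 FPKM in the YWHAB library and 0.387 FPKM in the vector library). Its pseudogenes SLC7A5P1 and SLC7A5P2 were listed at 0 in both libraries.

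SLC7A11 (ENSG00000151012), the light chain xCT that takes up cystine in exchange for glutamate, lies on chromosome 4 from 138164097 to 138242349 on the minus strand. It was at 9.08 FPKM in the YWHAB library and 10.0 FPKM in the vector library, from 655 (YWHAB) and 648 (vector) fragments. The ratio of 0.906 had a counting interval of 0.811 to 1.01, which includes equal levels. An antisense RNA, SLC7A11-AS1, named after its values were seen, shares 8.97% of the exon bases of SLC7A11 and was at 0.744 FPKM in the YWHAB library and 3.10 FPKM in the vector library, from 15 (YWHAB) and 56 (vector) fragments. Whether reads were counted by strand is not stated, so those of the pair cannot be told apart where they overlap.

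The heavy chain and its main light chain thus stood in opposite directions. SLC3A2 was at 2.20 times the FPKM of SLC7A5 in the YWHAB library and at 5.22 times in the vector library. The ratio of SLC3A2 to SLC7A5 in the YWHAB library was 0.421 of that in the vector library (exact conditional counting interval 0.385 to 0.460). It is computed from fragment numbers, so the length assigned to each gene and the library totals cancel, but a trend of the differences with transcript length does not. Corrected for length and GC content, an alternative added for this pair after the data were seen, it was 0.492, outside that interval and in the same direction. Relative to SLC7A11, SLC3A2 was at 0.812 of its vector ratio (interval 0.716 to 0.920, corrected value 0.883), and SLC7A5 relative to SLC7A11 was at 1.93 (interval 1.69 to 2.19, corrected value 1.80). PCR copies of a fragment cannot be recognised here, so all intervals cover counting error only.

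Of the 6 known SLC3A2 light chain genes, 4 were compared. SLC7A6 (y+LAT2, which exchanges cationic for neutral amino acids) was at 8.21 FPKM in the YWHAB library and 5.06 FPKM in the vector library, a ratio of 1.62 (counting interval 1.31 to 2.02). SLC7A6OS on the opposite strand shares 44.4% of the exon bases of SLC7A6, so this value is uncertain. SLC7A7 (y+LAT1) was at 4.28 FPKM in the YWHAB library and 6.21 FPKM in the vector library, a ratio of 0.689 (interval 0.497 to 0.952). SLC7A8 had 3 fragments in the YWHAB library and 11 in the vector library, and SLC7A10 had 0 (YWHAB) and 1 (vector). Light chain genes together summed to 83.3 FPKM in the YWHAB library and 57.1 FPKM in the vector library, and SLC7A5 made up 74.0% of the sum in the YWHAB library and 61.8% in the vector library. SLC3A2 was at 1.62 times the light chain sum in the YWHAB library and at 3.22 times in the vector library. These levels rest on the length assigned to each gene, which for SLC3A2 is a mean of 1079 nt over 23 annotated transcripts, and with fragments scaled to merged exon length, an alternative chosen after the data were seen, the same ratios were 0.581 in the YWHAB library and 1.22 in the vector library.

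**Figure D2:**
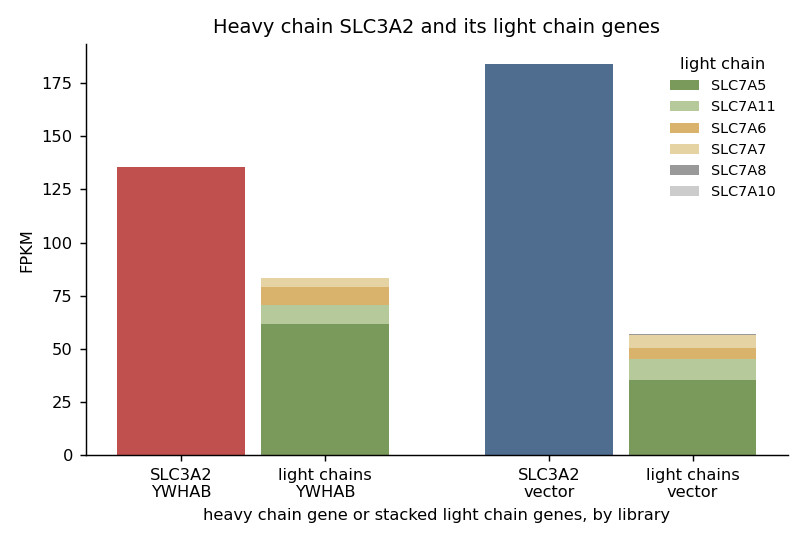
FPKM of the heavy chain gene SLC3A2 and stacked FPKM of its 6 light chain genes, in the YWHAB library (left pair of bars) and in the vector library (right pair), 1 library per group. SLC3A2 is at 135 FPKM in the YWHAB library and 184 FPKM in the vector library, while the light chain stack, mostly SLC7A5, is at 83.3 FPKM (YWHAB) and 57.1 FPKM (vector).

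The exchangers of small neutral amino acids both had higher values in the YWHAB library. SLC1A5 (ENSG00000105281), the ASCT2 exchanger that carries glutamine, lies on chromosome 19 from 46774883 to 46788594 on the minus strand and was at 126 FPKM in the YWHAB library and 86.4 FPKM in the vector library. From 2791 (YWHAB) and 1708 (vector) fragments the ratio was 1.46 (counting interval 1.38 to 1.56). Its exons overlap an antisense gene, AC008622.2, over 23.4% of their bases. That gene was listed at 0 in both libraries. Whether reads were counted by strand is not stated, so the 0 cannot show that the SLC1A5 value is unaffected. SLC1A4 (ENSG00000115902), the ASCT1 exchanger of alanine, serine, cysteine and threonine, is located on chromosome 2 (plus strand, 64988477 to 65023865). It had the lowest level of the 10, at 2.91 FPKM in the YWHAB library and 1.67 FPKM in the vector library, and its ratio of 1.74 from 103 (YWHAB) and 53 (vector) fragments had a wide interval of 1.24 to 2.47. SLC1A4 relative to SLC1A5 gave 1.19 of the vector ratio (interval 0.841 to 1.70), so a shift within this pair was not detectable at this depth.

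Sodium-coupled carriers of neutral amino acids gave unlike values for SLC38A1 and SLC38A2. SLC38A2 (ENSG00000134294, chromosome 12 from 46358189 to 46372867, minus strand), which encodes SNAT2, a carrier known to be induced when amino acids are scarce, had the highest level of the 10. It was at 441 FPKM in the YWHAB library and 473 FPKM in the vector library, and its ratio of 0.932 (counting interval 0.904 to 0.961) lay below equal levels by a small margin. After correction for transcript length and GC content its difference was 0.02 rather than -0.10, so the direction turned. The fragment numbers of SLC38A2, 8574 (YWHAB) and 8242 (vector), rest on a length of 1408 nt taken as the multiple nearest to its mean annotated transcript. SLC38A1 (ENSG00000111371, chromosome 12 from 46183063 to 46270017, minus strand), which encodes the glutamine carrier SNAT1, was at 161 FPKM in the YWHAB library and 111 FPKM in the vector library. Its ratio was 1.45 (interval 1.39 to 1.52). Of the summed FPKM of this pair SLC38A1 took 26.8% in the YWHAB library and 19.0% in the vector library, and SLC38A1 relative to SLC38A2 stood at 1.56 of its vector ratio (interval 1.48 to 1.65), or 1.44 with the correction, below that interval.

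SLC6A9 (ENSG00000196517, chromosome 1 from 43991500 to 44031467, minus strand), the glycine carrier GlyT1, was at 3.85 FPKM in the YWHAB library and 2.34 FPKM in the vector library. Its 81 (YWHAB) and 44 (vector) fragments gave a ratio of 1.65 (counting interval 1.13 to 2.44). CCDC24 on the opposite strand, which shares 7.83% of the exon bases of SLC6A9, was at 5.40 FPKM in the YWHAB library and 6.10 FPKM in the vector library, so the low value of SLC6A9 is uncertain.

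Between the carriers of cationic amino acids, SLC7A1 was the more abundant in both libraries and the gap was wider in the YWHAB library. SLC7A1 (ENSG00000139514, chromosome 13 from 29509410 to 29595688, minus strand), which encodes CAT1, the main arginine carrier of most cells, was at 84.3 FPKM in the YWHAB library and 50.9 FPKM in the vector library. From 3343 (YWHAB) and 1809 (vector) fragments its ratio was 1.66 (counting interval 1.56 to 1.75), and 2.63% of all genes compared were as far above. SLC7A2 on chromosome 8, which encodes CAT2, was at 4.55 FPKM in the YWHAB library and 4.51 FPKM in the vector library. The ratio of 1.01 had an interval of 0.867 to 1.18 from 364 (YWHAB) and 323 (vector) fragments. SLC7A1 relative to SLC7A2 was at 1.64 of its vector ratio (interval 1.39 to 1.93).

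**Figure D3:**
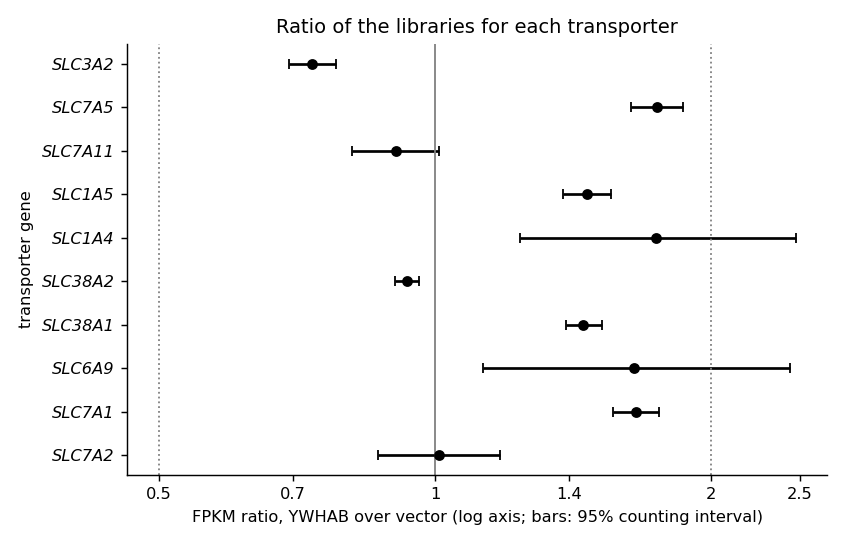
Ratio of FPKM in the YWHAB library over the vector library (log axis) for each transporter, with exact 95% counting intervals as bars. The solid line marks equal levels and the dotted lines 2-fold: 6 intervals lie wholly above equal levels, those of SLC3A2 and SLC38A2 lie below, and those of SLC7A2 and SLC7A11 include it.

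In all, 6 of the 10 transporters had a counting interval wholly above equal levels and 2 had one below. Such intervals were common, with 27.8% of all genes compared above and 21.8% below. The 10 genes summed to 1030 FPKM in the YWHAB library and 959 FPKM in the vector library, a ratio of 1.07. SLC38A2 alone made up 42.8% of the sum in the YWHAB library and 49.3% in the vector library. Without it the sum was 589 FPKM in the YWHAB library and 486 FPKM in the vector library. Sums and shares rest on the length assigned to each gene, which for SLC38A2 was 1408 nt, while its longest annotated transcript has 4888 nt.

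The order of levels was nearly the same in both libraries. In the YWHAB library it ran SLC38A2, SLC38A1, SLC3A2, SLC1A5, SLC7A1, SLC7A5, SLC7A11, SLC7A2, SLC6A9 and SLC1A4, and in the vector library SLC3A2 and SLC38A1 changed places. Without replicates it cannot be said which neighbours in this order differ beyond their spread. FPKM here divides by a mean over annotated transcripts, and with the longest annotated transcript instead SLC38A1 stood at rank 4 in both libraries. SLC1A5 then stood at rank 2 (YWHAB) and 3 (vector), and SLC3A2 at rank 3 (YWHAB) and 2 (vector). SLC7A5 stood at rank 5 and SLC7A1 at rank 6 in both libraries. The order, and which genes change places in it, thus depend on the length used.

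**Figure D4:**
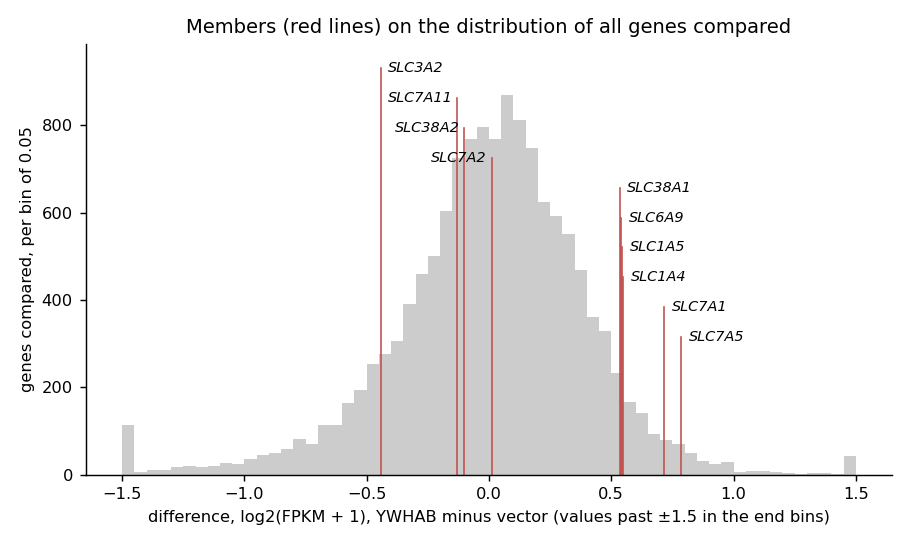
Differences in log2(FPKM + 1), YWHAB minus vector, for the 13420 genes compared (grey histogram, values past the axis limits in the end bins), with the 10 transporters as red lines. SLC38A1, SLC6A9, SLC1A5 and SLC1A4 lie close together between 0.53 and 0.55, with SLC7A1 at 0.72 and SLC7A5 at 0.79, and SLC3A2 is the lowest at -0.44.

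Long transcripts were slightly higher in the YWHAB library over the whole table. With protein-coding genes split by length into 5 equal groups, the median difference ran from -0.06 for the shortest to 0.12 for the longest. The genes SLC7A5, SLC7A1 and SLC1A4, with lengths of 3106, 2872 and 2559 nt, fell in the longest group, as did SLC7A11 (5221 nt, ratio 0.906) and SLC7A2 (5787 nt, ratio 1.01). The part of transcript length in the members' values was not tested beyond the correction given next. With length and GC content corrected for, the differences were 0.64 for SLC7A5, 0.63 for SLC7A1, 0.54 for SLC38A1, 0.51 for SLC1A5, 0.50 for SLC6A9 and 0.49 for SLC1A4, and that of SLC3A2 was -0.37.

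Other transporters of the same families did not share one direction. Of 32 further genes of these families 8 were compared, most of the rest being at or near 0, and 0 of the 8 passed the 2-fold rule. Their median difference was -0.01, with 1 gene at or above 0.5 (SLC7A6) and 1 at or below -0.5 (SLC1A1). SLC1A1, the glutamate carrier EAAT3, was at 3.05 FPKM in the YWHAB library and 4.79 FPKM in the vector library, a ratio of 0.637 (counting interval 0.461 to 0.877). SLC38A7, a lysosomal glutamine carrier, was at 13.3 FPKM in the YWHAB library and 10.9 FPKM in the vector library. In other transporter families 6 of 9 genes were compared, with a median of 0.05 and 0 past the rule. SLC43A2, the LAT4 carrier of large neutral amino acids, was at 3.65 FPKM in the YWHAB library and 6.06 FPKM in the vector library (ratio 0.602, interval 0.456 to 0.792), while its relative SLC43A1 (LAT3) was at 19.7 FPKM (YWHAB) and 14.9 FPKM (vector). The carriers SLC36A1 (PAT1) and SLC36A4 (PAT4) were at 17.98 and 14.6 FPKM and at 18.9 and 16.6 FPKM in the YWHAB and vector libraries.

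Mitochondrial amino acid carriers had a median difference of 0.02 over 9 of 11 genes, with 0 past the 2-fold rule and 0 at or beyond 0.5 in size. The aspartate-glutamate carriers SLC25A12 and SLC25A13 were at 11.3 and 7.95 FPKM and at 21.9 and 17.99 FPKM in the YWHAB and vector libraries. SLC25A38, a glycine carrier, was at 31.6 FPKM in the YWHAB library and 38.4 FPKM in the vector library, and SLC25A29, a carrier of basic amino acids, at 26.8 FPKM (YWHAB) and 32.1 FPKM (vector).

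Genes of the amino acid response, which controls several of the transporters, included the lowest differences of the related lists. Of 19 compared, 3 passed the 2-fold rule, all of them lower, and the median was -0.18. Among all genes compared 1.97% were 2-fold lower. NUPR1, the listed gene whose mean did not reach 1 FPKM, was at 0.065 FPKM (YWHAB) and 1.39 FPKM (vector), from 2 (YWHAB) and 38 (vector) fragments. ATF4, the transcription factor of this response, was at 157 FPKM in the YWHAB library and 155 FPKM in the vector library, a ratio of 1.01 (counting interval 0.962 to 1.06). DDIT3, the stress factor CHOP, was at 17.4 FPKM in the YWHAB library and 85.8 FPKM in the vector library, and ATF3 at 5.72 FPKM (YWHAB) and 22.9 FPKM (vector). SESN2, a leucine-binding inhibitor of mTORC1, was at 4.10 FPKM in the YWHAB library and 11.4 FPKM in the vector library, and the pseudokinase gene TRIB3 at 35.5 FPKM (YWHAB) and 55.8 FPKM (vector). MARS, on the other strand at 241 FPKM in the YWHAB library and 183 FPKM in the vector library, overlaps 27.2% of the DDIT3 exon bases, so the DDIT3 value is uncertain. Not all genes of the list were lower: 9 of the 19 had a higher value in the YWHAB library, some by very little, such as ATF4 with a difference of 0.01. Of the 19, 3 had a counting interval wholly above equal levels and 10 had one below, against 27.8% and 21.8% of all genes compared. ATF5, a factor related to ATF4 that was picked with its values known, stood at 12.3 FPKM in the YWHAB library and 7.98 FPKM in the vector library, a ratio of 1.54 (interval 1.22 to 1.95). NUP62 on the opposite strand, at 98.3 FPKM (YWHAB) and 82.9 FPKM (vector), shares 21.2% of the ATF5 exon bases, so the ATF5 value is uncertain.

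Enzymes that make or use the carried amino acids showed no common direction, with a median of 0.03 over 21 of 24 genes and 0 past the 2-fold rule. The serine synthesis enzymes PHGDH and PSAT1 were at 3.63 and 1.81 FPKM and at 56.2 and 34.5 FPKM in the YWHAB and vector libraries. CTH, which makes cysteine from cystathionine, was at 3.05 FPKM in the YWHAB library and 6.42 FPKM in the vector library. ARG2, the mitochondrial arginase, was at 1.97 FPKM (YWHAB) and 3.37 FPKM (vector), and VTI1B on the opposite strand shares 37.4% of its exon bases.

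Among genes of mTORC1 amino acid sensing, the pathway that reads leucine and arginine brought in by such carriers, 1 of 23 compared was 2-fold lower (SESN2, counted above as well) and 0 were higher, with a median of -0.18. SESN3 was at 1.36 FPKM in the YWHAB library and 2.78 FPKM in the vector library, the lysosomal scaffold subunit LAMTOR3 at 9.93 FPKM (YWHAB) and 15.7 FPKM (vector), and the Rag GTPase RRAGC at 6.56 FPKM (YWHAB) and 10.1 FPKM (vector). Around SLC7A11, the 13 genes of cystine, glutathione and ferroptosis had a median of -0.09 and 0 past the rule. NFE2L2, the NRF2 factor that drives SLC7A11 under oxidative stress, was at 46.2 FPKM in the YWHAB library and 57.0 FPKM in the vector library, and its target HMOX1, heme oxygenase 1, at 20.1 FPKM (YWHAB) and 39.9 FPKM (vector). FTH1, the ferritin heavy chain, was at 8.71 FPKM (YWHAB) and 15.2 FPKM (vector), from 93 (YWHAB) and 145 (vector) fragments. BEST1 on the opposite strand shares 62.4% of the FTH1 exon bases and was at 0.030 FPKM (YWHAB) and 0.539 FPKM (vector). Sequence that FTH1 shares with genes elsewhere was not examined, so its level and ratio are uncertain. CD44, a surface glycoprotein known to stabilise the SLC7A11 protein, was at 998 FPKM in the YWHAB library and 697 FPKM in the vector library.

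**Figure D5:**
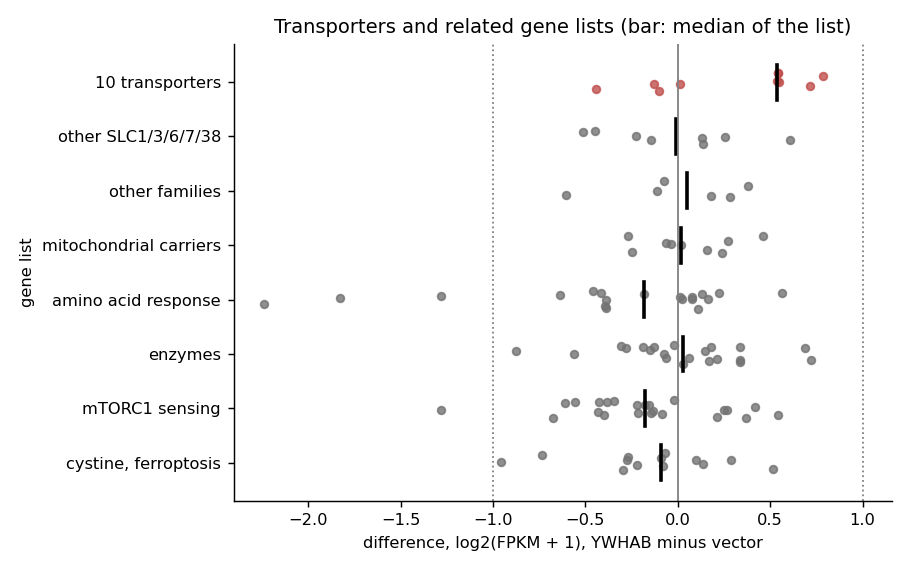
Differences in log2(FPKM + 1), YWHAB minus vector, for each gene compared in the 10 transporters (red) and in 7 related gene lists (grey), with the median of each list as a bar and dotted lines at the 2-fold rule. The median is 0.54 for the 10 transporters and lies between -0.18 and 0.05 for the 7 related lists drawn, and the amino acid response list holds the points farthest below 0. The SLC3A2 light chain list, which shares SLC7A5 and SLC7A11 with the transporters, is not drawn (median 0.24 over 4 genes). Nor is the list of markers of the line (median 0.52 over 7 genes).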

How the data were processed

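FPKM values for 2 libraries were deposited by the authors, the unit being named in the labels. Alignment with HISAT2 2.0.5 to hg38 (GRCh38) is named in the submitters' processing notes. Counter, annotation release, strand handling and filters: not given in the sources used here. Symbols came from GENCODE 29, which held 96.3% of identifiers.

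Fragments were recovered from the steps of the FPKM values. For 26765 of 26770 genes above 0 both values were a whole fragment number over a whole length (relative tolerance 1e-12). For 14.2% the length was taken as the multiple nearest the mean annotated transcript. The recovery was tested on simulated data in which annotated genes had the rounded mean length of their annotated transcripts. Where a real length differs from that mean, the choice of multiple was not tested. The 95% intervals of ratios are Clopper-Pearson, those of ratios between genes exact conditional odds ratios (scipy 1.17.1). A count of 0 allows 3 fragments, for 1 kb 0.217 FPKM in the YWHAB library and 0.242 FPKM in the vector library.

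The difference is log2(FPKM + 1), YWHAB minus vector, over the 13420 genes whose mean reached 1 FPKM. Besides the transporters, the text names up to 4 genes per related list with the largest absolute difference, and ATF4, DDIT3 and NFE2L2. All 6 light chain genes were named, and not all genes named from the marker lists follow that rule. ATF5, NUPR1 and SLC7A11-AS1 were added with their values known. Members and lists were chosen with earlier results of these data known. Alternatives were another pseudocount, filters, 2 rescalings, a length and GC correction fitted on protein-coding genes, and other gene lengths.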

Additional observations from a re-analysis of the deposited data

How the results depend on the processing

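None of the 10 transporters passed the 2-fold rule under any of 6 other settings: a smaller pseudocount (0.1), no filter on low values, a higher filter (mean of 5 FPKM or more), equal FPKM totals, a median log2 ratio set to 0, and a correction for length and GC content. Of 57 recomputed member differences 54 stayed within their counting interval, and length and GC correction moved the other 3 (SLC7A5, SLC7A1 and SLC38A2, given in the Results). A change of filter cannot alter the difference of a member. The values under the changed filters, counted among the 57, were therefore fixed in advance and show no stability. SLC7A2 ranged from -0.07 to 0.05 and SLC38A2 from -0.14 to 0.02, so neither has a stable direction, whereas SLC7A5 ranged from 0.64 to 0.83 and SLC3A2 from -0.48 to -0.37. Members at or above 0.5 numbered between 4 (the higher filter, which left 7 members) and 6, and the members' median lay between 0.50 and 0.58. The 2-fold calls over all genes were 222 higher and 471 lower with the smaller pseudocount, 155 higher without the filter, 40 higher and 112 lower with the higher filter, 173 higher with equal totals, and 41 higher and 144 lower with the correction for length and GC, which covers protein-coding genes alone (34 and 167 uncorrected). With a pseudocount of 0.1, 1 enzyme, CTH, was 2-fold lower. In the amino acid response list 4 genes rather than 3 passed the 2-fold rule without the filter and with equal totals. The ratio of SLC3A2 to its light chains was 1.85 in the YWHAB library after length and GC correction, 0.574 of the vector ratio. With the length of the longest transcript it was 1.27 in the YWHAB library and 2.63 in the vector library, and with merged exons 0.581 (YWHAB) and 1.22 (vector), both chosen after the data were seen. The pseudocount has no bearing on that ratio. With the same correction SLC7A1 relative to SLC7A2 was at 1.65 of its vector ratio and SLC1A4 relative to SLC1A5 at 1.16, both within their counting intervals. No paired analysis was possible because each group has 1 library, and for the same reason no library could be left out. Depth limits SLC1A4 and SLC6A9, with 156 and 125 fragments over both libraries.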
